A study of Mus musculus with 6 samples.

Results

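The Notch genes described here are 4 ligand genes, Jag1, Jag2, Dll1 and Dll4, the 4 receptor genes Notch1, Notch2, Notch3 and Notch4, and 2 genes that the pathway switches on, Hes1 and Hey1. They were chosen by symbol, as every probe set that the platform annotation assigns to these genes and to no other. That gave 19 of the 45037 probe sets that are not Affymetrix controls, and 10 of the 18193 genes that the arrays name. The femurs were those of 3 male C57BL/6 mice, 8 weeks old, which had all received saline by intraperitoneal injection and for which no genetic change is named. The central group is marrow flushed with buffered saline and serum from femoral shafts whose ends had been cut away, pelleted and then lysed in the phenol reagent Trizol. The endosteal group is RNA that Trizol released from the shafts after that flush, so it holds whatever cells had stayed on the inner bone surface. Each region has 3 arrays, lettered A, B and C. All 6 samples share strain, sex, age and treatment.

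In Notch signalling a membrane-bound ligand of the Jagged or Delta-like kind on 1 cell binds a Notch receptor on its neighbour. The bound receptor is cut first by an ADAM protease and then by gamma-secretase, and the freed intracellular part enters the nucleus, joins the DNA-binding protein RBPJ and a Mastermind coactivator, and turns on target genes such as those of the Hes and Hey families. Among blood cells, Notch1 is needed for T cell commitment in the thymus and Notch2 for marginal zone B cells in the spleen, whereas Notch4 and Dll4 are best known from endothelium and Notch3 from the mural cells that wrap vessels. Osteoblasts and endothelial cells that carry Jag1 have been studied as part of the stem cell niche.

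The start regions of the 4 receptor genes are shown because they are unlike in base composition. A link with the RNA changes of these genes was not tested. The RefSeq promoter table, on build GRCm38.p6, held 8 of the 10 genes with 9 start sites, 2 of them for Dll1, and did not list Hes1 or Hey1. The 250 bases before the annotated start are printed 5′ to 3′ in the direction of the gene, in lower case, with each GC box in capitals. A GC box is GGGCGG, read on both strands, so that CCGCCC counts too.
Notch1, chr2:26503823-26504072, minus strand: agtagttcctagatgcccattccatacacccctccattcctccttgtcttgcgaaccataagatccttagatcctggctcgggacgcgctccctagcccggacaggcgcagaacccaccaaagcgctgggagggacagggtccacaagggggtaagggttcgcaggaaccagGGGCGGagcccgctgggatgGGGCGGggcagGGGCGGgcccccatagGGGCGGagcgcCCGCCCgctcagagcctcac
Notch2, chr3:98013288-98013537, plus strand: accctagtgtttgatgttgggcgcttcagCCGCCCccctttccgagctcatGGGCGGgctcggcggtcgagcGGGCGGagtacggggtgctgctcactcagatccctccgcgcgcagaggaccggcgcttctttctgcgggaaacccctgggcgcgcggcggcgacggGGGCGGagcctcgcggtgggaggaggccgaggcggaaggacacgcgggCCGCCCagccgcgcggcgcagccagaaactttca
Notch3, chr17:32166891-32167140, minus strand: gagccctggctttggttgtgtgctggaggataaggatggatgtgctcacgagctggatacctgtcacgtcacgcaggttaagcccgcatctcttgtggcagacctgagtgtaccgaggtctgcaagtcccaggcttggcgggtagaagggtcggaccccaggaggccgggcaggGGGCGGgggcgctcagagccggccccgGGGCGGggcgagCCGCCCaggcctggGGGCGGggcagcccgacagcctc
Notch4, chr17:34564045-34564294, plus strand: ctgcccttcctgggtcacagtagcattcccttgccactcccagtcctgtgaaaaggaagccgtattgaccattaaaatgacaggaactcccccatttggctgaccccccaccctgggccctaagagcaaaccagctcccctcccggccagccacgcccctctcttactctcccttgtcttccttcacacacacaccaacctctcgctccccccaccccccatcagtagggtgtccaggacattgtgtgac
Notch1, Notch2 and Notch3 have 5, 5 and 4 GC boxes here, and Notch4 has 0. Of all 32851 promoters in the table, 32.7% hold at least 1 GC box in this window. The CpG dinucleotide occurs 16, 34 and 17 times in the windows of Notch1, Notch2 and Notch3 but 4 times in that of Notch4, where the median promoter has 6. The letters TGGGAA, the core that RBPJ recognises, occur on neither strand in any of the 9 windows and in 21.6% of all promoters. The longer form GTGGGAA, which contains that core, occurs in 5.42% of all promoters and likewise in none of the 9. Of other motifs searched on both strands, CACGTG and TATAAA had 0 matches in the 9 windows (6.02% and 12.4% of all promoters). CACNAG, the N-box bound by Hes proteins, matched once each in the windows of Dll4, Notch1 and Notch2 and at 2 places in that of Notch3 (36.7% of all promoters). A match is a string of letters and not a shown binding site.

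Signals are linear values as the authors deposited them, printed in the order A, B, C. Changes are differences of log2(signal + 16), endosteal minus central, which understates the change of a dim probe set. A feature is called higher or lower when the limma test gave a Benjamini-Hochberg adjusted p under 0.05 over all features tested. The median signal of an array was between 96.9 and 131, so that many of the Notch signals below lie near or under the middle of the array and are imprecise. Endosteal RNA carried bone genes, taken here from a chosen list of osteoblast genes. The summed signal of 5 measured osteoblast genes was 1541 to 1978 on central arrays and 61131 to 74981 on endosteal arrays. Col1a1 and Col1a2, with endosteal means of 20221 and 37317, made up most of the endosteal sum. Of the 5, 4 were called higher, and Sp7 was not called (adjusted p = 0.0661). Endosteal RNA also carried muscle, although the bones had been scraped and rubbed clean. The sums of 8 skeletal muscle genes were 282 to 623 on central and 58791 to 117784 on endosteal arrays. The leukocyte gene Ptprc was high in both regions, at 17162 to 19832 in central and 12457 to 13959.8 in endosteal RNA.

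Of the 10 Notch genes, each taken as its brightest probe set, 3 were called higher in endosteal RNA (Notch4, Jag1 and Hes1), 1 was called lower (Notch1) and 6 were not called. The median change of the 10 was 0.96, beside 0.10 over all genes. Among all genes 11.9% were called, 7.92% higher and 4.02% lower. At probe set level, 3 of 19 were called higher and 2 lower, where 4.50% of all probe sets were called, 3.21% higher and 1.29% lower. The 3 arrays of one region all lay beyond those of the other for 7 of the 10 genes, 5 higher and 2 lower, which happened for 37.7% of all genes. With the array letter as a replicate block, 1 gene was called higher, Notch4, and 0 lower, where 0.819% of all genes were called. In bulk RNA such as this, a change in how many cells carry a transcript cannot be told apart from a change in its amount per cell.

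**Figure D1:**
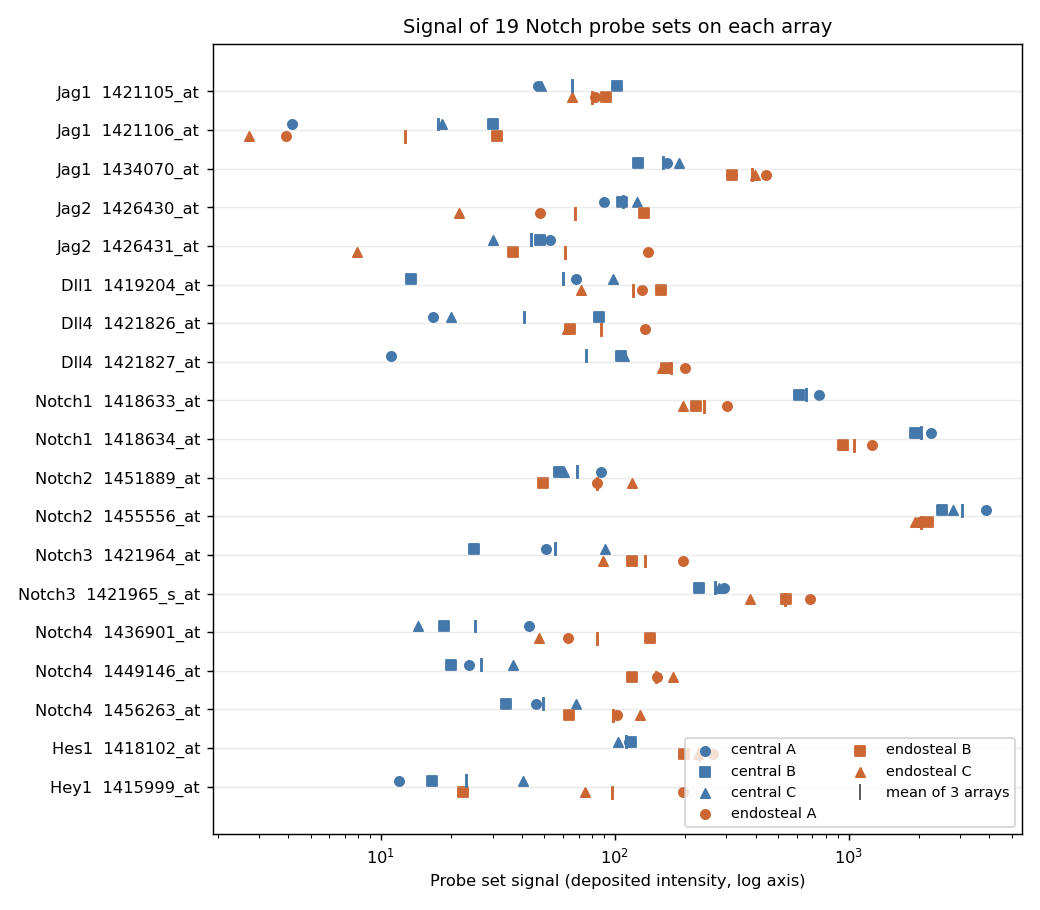
Deposited signal (log axis) of each of the 19 probe sets on the 3 central (blue) and 3 endosteal (orange) arrays, with array letters as marker shapes and vertical bars for the mean of 3 arrays. The Notch1 probe sets lie lower on all endosteal arrays, whereas Jag1 1434070_at, Notch4 1449146_at and Hes1 1418102_at lie higher on all of them.

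Among the ligands, Jag1 rose by its brightest probe set alone. Jag1 encodes Jagged1, a ligand with a cysteine-rich region near the membrane that the Delta-like ligands lack. Probe set 1434070_at had signals of 167, 126 and 188 in the central samples, against 445, 318 and 399 in the endosteal ones. The lowest endosteal array stood well above the highest central array. The change was 1.20 (SE 0.20, 95% interval 0.69 to 1.70, adjusted p = 0.0233 over genes and 0.0427 over probe sets), a 2.29-fold rise. The other pair of Jag1 probe sets did not show it. Probe set 1421105_at read 46.9, 102 and 48.5 against 82.0, 92.0 and 65.7 (change 0.28, interval -0.45 to 1.01). Probe set 1421106_at was dim, with all 6 signals between 2.74 and 31.4 (change -0.28, interval -1.46 to 0.89). In both, the regions overlapped. The mean of the 3 probe sets changed by 0.40 (adjusted p = 0.303), and with the replicate block the brightest had an adjusted p of 0.0607. Its gene call was lost without central array A, B or C or endosteal array A or C, with adjusted p from 0.0521 to 0.0731.

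Jag2, which encodes the other Jagged ligand, was not called in either direction. Probe set 1426430_at read 89.8, 107 and 125 in central RNA, then 47.8, 133 and 21.5 in endosteal RNA. Endosteal array B was above every central array while endosteal A and C were below them all. The change of -0.79 had an interval of -2.05 to 0.47 (adjusted p = 0.365), and it was -1.33 without endosteal B and -0.33 without endosteal C. Probe set 1426431_at read 52.9, 47.7 and 30.1 against 139, 36.7 and 7.86, with endosteal A above the central range, B within it and C below it (change -0.02, interval -1.68 to 1.64). The spread between endosteal arrays leaves room for a change of either sign.

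The Delta-like ligands were not called, and the size of their positive changes depended on single central arrays. Dll4, a ligand of arterial and sprouting endothelium, had signals of 11.0, 106 and 109 in central RNA by probe set 1421827_at, against 199, 165 and 159 in endosteal RNA. All endosteal arrays were higher, but central array A was far below central B and C. The change was 1.34 with an interval of -0.21 to 2.90 (adjusted p = 0.226), and it was 0.61 without central array A. Probe set 1421826_at of Dll4 read 16.7, 85.8 and 20.0 against 135, 64.5 and 62.5, with central B above both endosteal B and C (change 1.00, interval -0.28 to 2.28). Dll1, a Delta-like ligand used in B and T cell fate decisions, read 68.2, 13.5 and 98.7 against 131, 157 and 71.6. Endosteal C lay within the central range, and the change of 0.99 had an interval of -0.41 to 2.39 (adjusted p = 0.310). Without central array B, the Dll1 change was 0.41.

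Among the receptors, Notch1 fell and Notch4 rose. Notch1 was the member measured most brightly along with Notch2, and both of its probe sets were called. Probe set 1418634_at read 2241, 1922 and 1953 in central RNA, against 1259, 941 and 949 in endosteal RNA. Probe set 1418633_at read 746, 614 and 612 against 301, 223 and 196. Every endosteal array was lower in both. The first fell by 0.96 (SE 0.17, interval -1.37 to -0.54, adjusted p = 0.0249 over genes and 0.0488 over probe sets), a 1.94-fold difference. The second fell by 1.41 (SE 0.21, interval -1.93 to -0.90, adjusted p = 0.0273 over probe sets). With the replicate block the gene's adjusted p was 0.0681. Its call was lost without central array A, B or C or endosteal array B or C, with adjusted p from 0.0668 to 0.0807. Scaled to the poly-A spike controls, the first probe set changed by -0.09 (adjusted p = 0.735) and the second, 1418633_at, by -0.57 (adjusted p = 0.115), and neither was called.

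Notch2 had its bright probe set, 1455556_at, at 3852, 2505 and 2792 in the central group, against 2003, 2176 and 1913 in the endosteal group. All endosteal arrays were lower, by a smaller margin than for Notch1. The change of -0.56 had an interval of -1.04 to -0.08 and did not pass (adjusted p = 0.124). Its dim probe set 1451889_at read 87.6, 57.6 and 60.9 against 83.7, 49.5 and 118, with the regions overlapping (change 0.19, interval -0.57 to 0.95). Among genes above the median level alone, the bright probe set passed (adjusted p = 0.0321), and so it did with an intensity trend (adjusted p = 0.0191). It did not pass with the replicate block (adjusted p = 0.194), and its change was -0.38 without central array A. The mean of both probe sets changed by -0.18 (adjusted p = 0.628).

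Notch3 pointed up in both of its probe sets and was near the threshold. Probe set 1421965_s_at read 293, 229.9 and 278 in the central group, against 683, 538 and 378 in the endosteal group. The lowest endosteal array, C, was above the highest central array, A. The change was 0.92 (SE 0.24, interval 0.32 to 1.53, adjusted p = 0.0658). Probe set 1421964_at read 51.0, 25.1 and 90.9 against 196, 119 and 89.1, where endosteal C fell just under central C (change 1.12, interval 0.06 to 2.18). The gene passed in 6 of 17 alternatives, among them without endosteal array C (1.14, adjusted p = 0.0415), with a pseudocount of 64 and with an intensity trend (adjusted p = 0.0166). It did not pass with the replicate block (adjusted p = 0.116) or with the mean of both probe sets (adjusted p = 0.104). Nor did it pass without any other single array (adjusted p from 0.119 to 0.183).

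Notch4 changed most among the 10 genes, each taken as its brightest probe set. Probe set 1449146_at read 23.8, 19.9 and 36.6 in central RNA, against 152, 119 and 178 in endosteal RNA. The means were 26.8 ± 8.71 and 149.9 ± 29.7 (SD, n = 3), with no overlap. The change was 1.96 (SE 0.22, interval 1.42 to 2.49, adjusted p = 0.00840 over genes and 0.0163 over probe sets). The central signals were near background, so the size depends on the pseudocount, with 2.47 at a pseudocount of 1 and 1.23 at 64, both called. The ratio of plain means, which is the study's own measure, was 2.49 on the log2 scale. The other probe sets pointed the same way and were not called over all probe sets. Probe set 1436901_at read 43.0, 18.6 and 14.4 against 62.8, 142 and 47.2, without overlap (change 1.22, interval 0.17 to 2.28). Probe set 1456263_at read 45.9, 34.2 and 68.2 against 102, 63.6 and 128 (change 0.79, interval 0.04 to 1.54). There endosteal B fell under central C. In central RNA 1456263_at was the brightest of the 3, with a mean of 49.4 against 26.8 for 1449146_at. The latter was brightest over both regions only through its endosteal signal, so choosing by mean signal favoured the largest change here. The gene kept its call with the replicate block (adjusted p = 0.0459), with its 3 probe sets averaged (1.32, adjusted p = 0.0107) and without each array in turn (adjusted p from 0.0187 to 0.0378). Over probe sets, 1449146_at lost its call with the block (adjusted p = 0.0921) and without central array A or B or endosteal array A (adjusted p from 0.0538 to 0.0708).

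**Figure D2:**
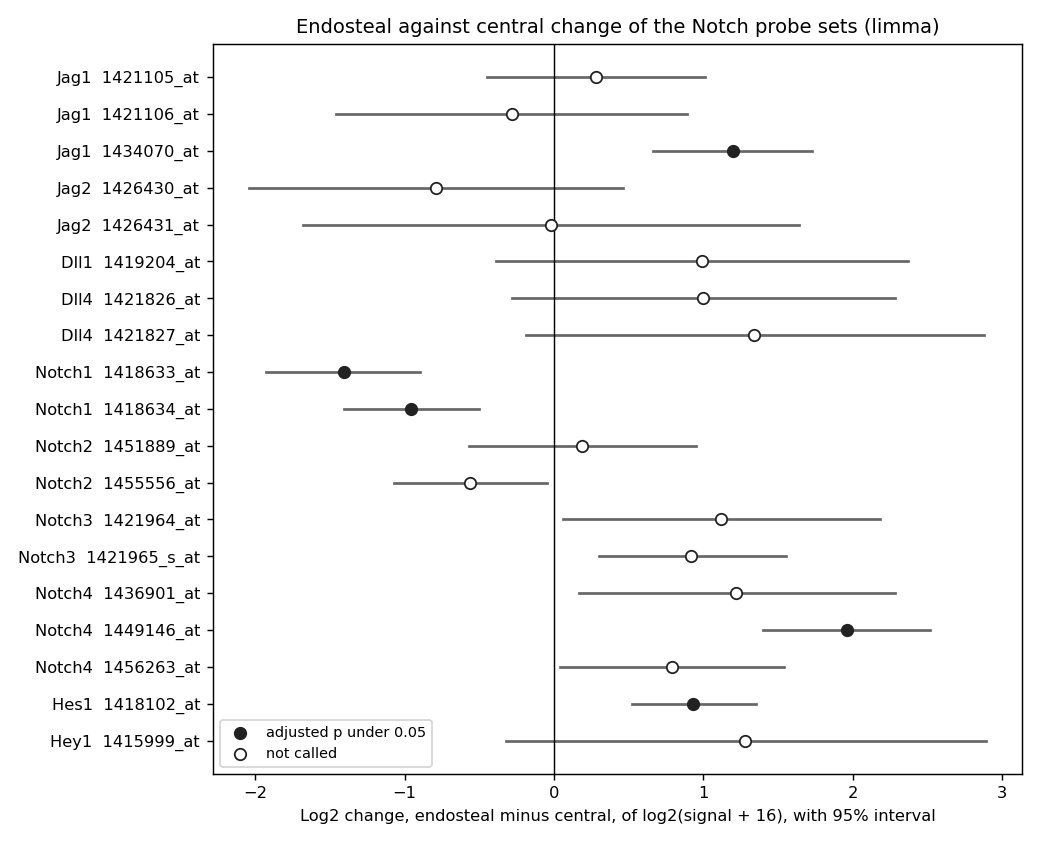
Log2 change from central to endosteal arrays of each Notch probe set (points) with its 95% interval (lines) from the limma fit over all 45037 probe sets, filled where the adjusted p was under 0.05. Both Notch1 probe sets lie left of 0 and all 3 of Notch4 lie right of it, whereas the 3 Jag1 probe sets spread from -0.28 to 1.20.

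Of both target genes, Hes1 was called higher. Hes1 encodes a repressor of transcription that Notch induces in many tissues, and other pathways induce it too. Its 1 probe set read 115, 117 and 103 in central RNA, against 264, 197 and 227 in endosteal RNA. The central arrays lay close together and every endosteal array was above them. The change was 0.93 (SE 0.15, interval 0.56 to 1.30, adjusted p = 0.0202 over genes and 0.0427 over probe sets), a 1.91-fold rise. With the replicate block its adjusted p was 0.0798, and with every array centred to a common median it was 0.0523. The gene's call was also lost without central array A, B or C or endosteal array A or C, with adjusted p from 0.0502 to 0.0717. Hey1, a related repressor of endothelium and bone, read 11.9, 16.5 and 40.5 against 195, 22.5 and 74.7. Endosteal A was far above the other arrays and endosteal B lay within the central range. The change of 1.28 had an interval of -0.34 to 2.91 (adjusted p = 0.263). It was 0.67 without endosteal A and 1.90 without endosteal B.

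Many markers of other cell types were called higher on the same endosteal arrays as Notch4, Jag1 and Hes1. Of 12 endothelial markers, 9 were called higher and 0 lower, and their summed signal was 2496 to 3984 on central and 8648 to 9769.8 on endosteal arrays. The largest part of that sum came from 1 gene, Vwf, with means of 1702 in central and 4253 in endosteal RNA. Tek, the angiopoietin receptor of endothelium, changed by 2.44, and Cdh5, a junction protein of endothelium, had signals of 119.6 ± 12.6 and 196 ± 56.8 and was not called (change 0.61). Of 5 arterial markers, Efnb2 and Sox17 were called higher, by 2.23 and 2.01, and Bmx lower, by -0.83. The arterial list summed to 1247 to 1482 and 1181 to 1233, most of it from Bmx, which myeloid cells also express. Of 9 pericyte and smooth muscle markers, 4 were called higher and 0 lower, while Acta2 and Cnn1 had changes of -0.19 and 0.05, and the list summed to 2195 to 2832 and 7063 to 11102. Satellite cells, the muscle stem cells in which Notch is active, had 4 dim markers, of which limma called 0 and 3 were higher at an unadjusted p under 0.05, with sums of 58.3 to 86.3 and 124 to 211. At that unadjusted threshold 3253 of all 18193 genes were higher. Calcr, 1 of the 3 and the brightest of the 4 markers, was also on the osteoclast list. Pax7 changed by 0.42 (adjusted p = 0.604). Of 6 stromal markers, 6 were called higher, with sums of 2551 to 4834 and 24729 to 27926. Of 7 osteoclast markers, 6 were called higher, with sums of 1846 to 2565 and 23801 to 27858. Of 6 megakaryocyte markers, 4 were called higher, with sums of 22539 to 44906 and 84678 to 99714. No marker was at 0 in any list. The part of these cells in the Notch gene changes was not tested.

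Beside the fall of Notch1, 3 of 6 measured B lymphocyte markers were called lower and 0 higher, with sums of 13539.6 to 20241 and 4688 to 8605. Of 5 T lymphocyte markers limma called 0, with 0 at an unadjusted p under 0.05, and sums of 863 to 1142 and 609 to 1026. Ptprc, which marks all leukocytes, had a change of -0.47 (adjusted p = 0.0711). The 6 neutrophil markers had sums of 251448 to 273723 and 387242 to 393488, with 3 of 6 called higher. Erythroid markers, 5 measured, had sums of 58813 to 69597 and 37926 to 57623, with 5 negative changes and 0 called. Macrophage markers, 6 in number, had sums of 13802 to 14559 and 18715 to 21494, with 1 called higher. What part any of these cells had in the fall of Notch1 was not tested.

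The rest of the pathway was taken from a list of 66 genes by role, of which 61 were measured. Of these, 3 were called higher and 7 lower, and the median change was -0.05, beside 0.10 over all genes. The share called, 10 of 61, stands beside 11.9% of all genes. In the fit over all probe sets, the brightest probe sets of Nedd4, Maml1 and Spen were also called. The brightest probe sets of the other 7 were not (adjusted p from 0.0566 to 0.112). At an unadjusted p under 0.05, 7 were higher and 16 lower, where 3253 of all 18193 genes were higher and 2061 lower. With the replicate block 0 were called in either direction, while the mean of each gene's probe sets gave 3 higher and 2 lower.

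Further ligands and atypical ligands, 6 genes, had 0 calls by limma, and 2 were higher at an unadjusted p under 0.05. Dlk1, a Delta-like protein of stromal progenitors, had signals of 33.7 and 75.8 (change 0.89, adjusted p = 0.0909), and Dll3, at 52.2 and 62.8, changed by 0.06. The genes that add sugars to the receptors, 5 in number, also had 0 calls, and 3 were lower at an unadjusted p under 0.05. The fringe genes, whose enzymes tune which ligand a receptor answers, were lower in value. Lfng went from 548 to 316 (change -0.78, adjusted p = 0.0684), Mfng from 503 to 327 (change -0.60, adjusted p = 0.0729) and Rfng from 785 to 643 (change -0.30, adjusted p = 0.304).

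Among 4 ubiquitin ligases that act on ligands, Neurl1a was called higher (82.1 ± 25.3 to 196 ± 25.1, change 1.14, adjusted p = 0.0381). Another of its 6 probe sets, 1458561_at, changed by 1.74 and was called over all probe sets (adjusted p = 0.0273). The remaining 4 changed by -0.16 to 0.30. Mib1, which drives ligand endocytosis, changed by 0.19 (adjusted p = 0.422). Of 8 genes of receptor cleavage, Ncstn, a gamma-secretase subunit, was called lower (521 ± 24.3 to 316 ± 48.7, change -0.70, adjusted p = 0.0428). Its dimmer probe set changed by -0.26, with the regions overlapping. The proteases Adam10 and Adam17 had signals of 5867 and 5880.2 and of 1521 and 1272, with changes of 0.01 (interval -0.33 to 0.34) and -0.26 (interval -0.65 to 0.13). The further Adam10 probe sets changed by 0.22 to 0.68 and those of Adam17 by -0.04 and 0.19, none called.

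Of 8 genes of the nuclear complex, 3 were called lower and 0 higher, where 4.02% of all genes were called lower. They were the coactivator genes Maml1 (1959 ± 208 to 1105 ± 4.87, change -0.81, adjusted p = 0.0205), Crebbp (change -0.59, adjusted p = 0.0377) and Ep300 (change -0.48, adjusted p = 0.0480). Over all probe sets the Crebbp and Ep300 probe sets were not called (adjusted p = 0.0838 and 0.112). Both encode acetyltransferases used by many transcription factors. Rbpj, the DNA-binding partner of the receptors, had signals of 1538 and 1480.3 and a change of -0.05 (interval -0.40 to 0.31). Its other probe sets disagreed, with 1448957_at at 0.03 and 1418114_at at -0.62 (interval -1.10 to -0.13), the latter without overlap of the regions and not called (adjusted p = 0.143). Of 12 corepressor genes, Spen and Tle4 were called lower. Spen went from 705 to 348 (interval of the change -1.43 to -0.56, adjusted p = 0.0253) and Tle4 from 1588 to 865 (change -0.87, adjusted p = 0.0389). The further Tle4 probe sets changed by 0.03 and -0.88, with the regions overlapping in both. Hdac2 was called higher, at 0.75 (adjusted p = 0.0312), by 1 of its 3 probe sets, while the others changed by 0.00 and -0.13.

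Of 12 genes of turnover and inhibition, Nedd4, a ubiquitin ligase with many substrates, was called higher (2119 ± 153 to 4339.7 ± 239, change 1.03, adjusted p = 0.0105). Its other probe sets changed by 0.94 and 0.76. Numb, which promotes removal of Notch from the membrane, had a change of -0.54 (adjusted p = 0.0846). Of 6 further targets, Hes6 was called lower (1018 ± 101 to 598 ± 26.9, change -0.75, adjusted p = 0.0251). Hes6 acts against Hes1 and is not a general Notch target. Heyl, Hey2, Hes5 and Nrarp had changes of 0.43, 0.80, 0.53 and -0.05 and were not called (adjusted p from 0.245 to 0.860). The further Heyl probe sets were larger in change, with 1438886_at at 1.85 (interval 0.65 to 3.06, adjusted p = 0.0967, no overlap) and 1419303_at at 0.72. The second Nrarp probe set, 1417986_at, changed by 1.17 (interval -0.02 to 2.35, adjusted p = 0.226). The Hey2 signals were dim, at 13.6 and 35.6.

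**Figure D3:**
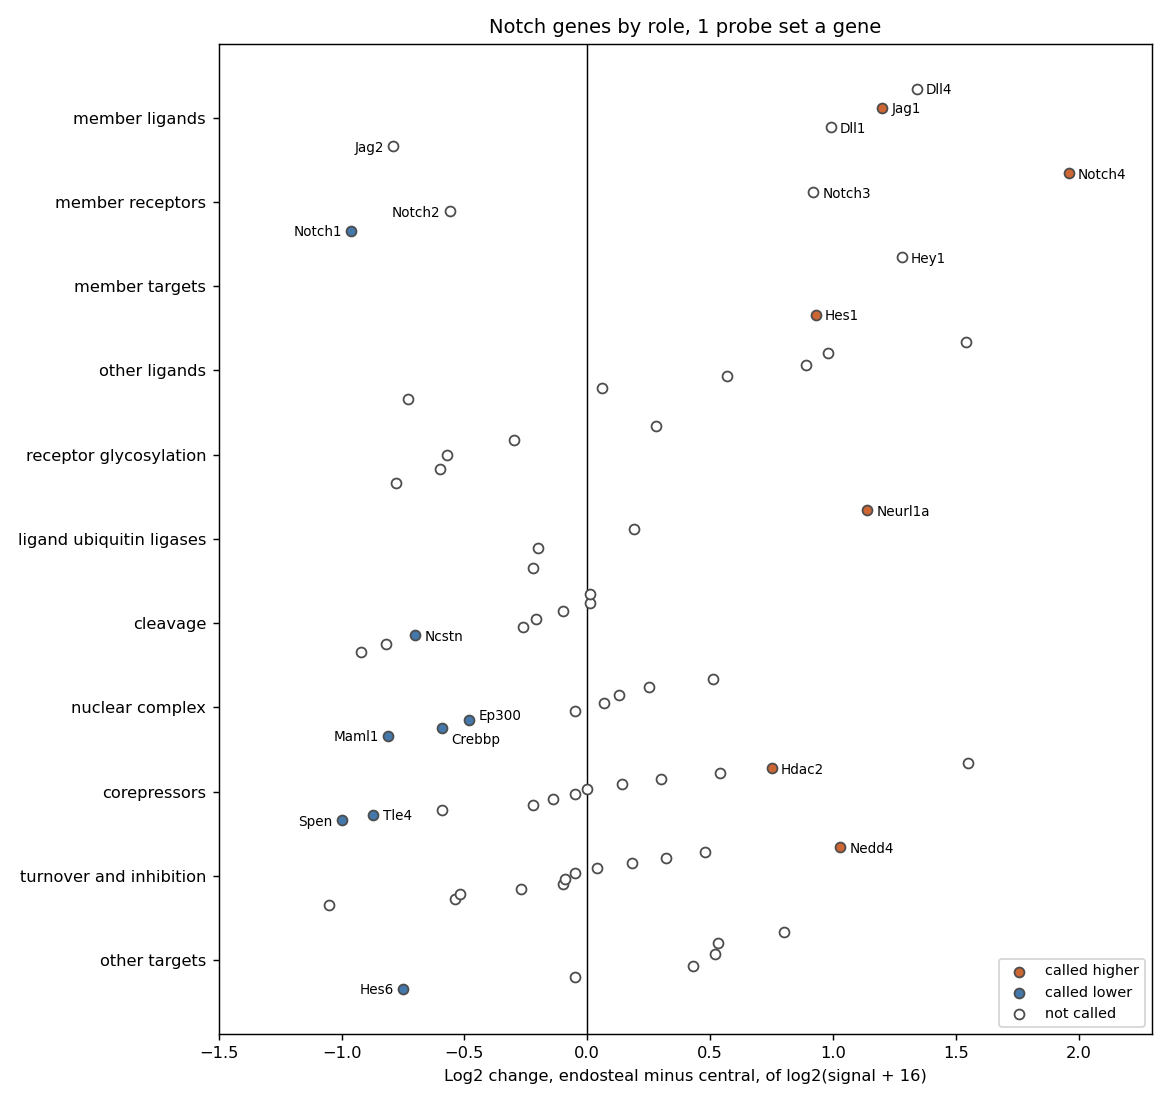
Log2 change of log2(signal + 16) from central to endosteal arrays for the 10 Notch genes and 61 other pathway genes by role, 1 probe set a gene, coloured where called. The named calls of the nuclear complex (Maml1, Crebbp and Ep300) lie left of 0, and Notch4 lies farthest right, at 1.96.

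Because every array was brought to 1 common mean, a change is relative to the other transcripts on the array. Poly-A spike controls, a set meant to be added to the RNA before labelling, were dimmer on endosteal arrays, and scaling to them moved the median of all genes from 0.10 to 0.84, or to 0.97 without the Trp probe sets, which were near background. Centring on the array median moved it to -0.16. On the poly-A scale Notch2 turned to 0.31, and without Trp Notch1, Notch2 and Jag2 were at 0.06, 0.46 and 0.04. Scaling by 1 factor an array moves all genes nearly alike, so values relative to the median of all genes vary little between such scalings by construction. The ranges that follow also include quantile normalisation, which is not 1 factor an array. Relative to that median, Notch1 lay 0.91 to 1.06 below and Notch2 0.51 to 0.66 below. Notch4 lay 1.68 to 1.86 above, Jag1 1.09 to 1.18 above and Hes1 0.73 to 0.89 above. The lowest values of Notch4 and Hes1 came from quantile normalisation.

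**Figure D4:**
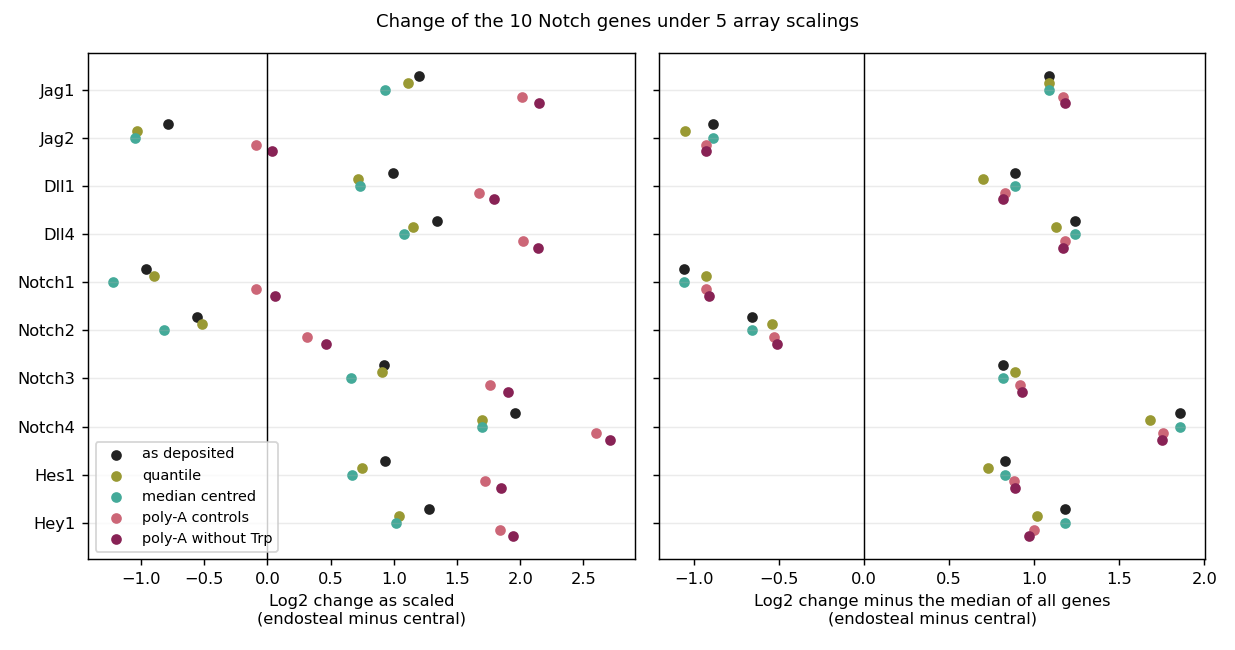
Change of each Notch gene under 5 array scalings (colours), as scaled on the left and minus the median change of all genes on the right, both as log2 endosteal minus central. On the left Notch1 runs from -1.22 to 0.06, and on the right, where 1 factor an array nearly cancels, it lies between -1.06 and -0.91.

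Among the 9096 genes above the median level, the 3 whose log2 values tracked each called member most closely over the 6 arrays were Adcy3, Polr2b and Cbr4 for Jag1 (r = 0.996, 0.995 and 0.994). For Notch1 they were Mast3, Marcksl1 and Fmnl1 (r = 1.000, 0.999 and 0.996). For Notch4 they were 1110004F10Rik, Pex13 and Ltbp3 (r = 0.998, 0.997 and 0.997), and for Hes1 Apbb2, Hsbp1 and Prxl2b (r = 0.996, 0.996 and 0.995). With 6 arrays in 2 regions such likeness is common. Between 291 and 550 genes had an r above 0.95 with each of the 4 members.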

How the data were processed

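The 6 samples were hybridised to Affymetrix mouse arrays, 1 array a sample, from cRNA made by one-cycle labelling of 2 micrograms of total RNA, per the labels' protocols. The authors deposited 1 linear intensity for each of 45101 probe sets, of which 64 are Affymetrix controls. The software that made them is not given in the sources used here. Each array had the same mean after trimming 2% at each end, so each appears to have been scaled by 1 factor, and between 16% and 20.2% of probe sets had an intensity below 16. Precision is limited by the 6 arrays.

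Gene names came from the platform annotation, with symbols updated by gene identifier in RefSeq (GRCm38.p6). Of them, 34945 named 1 gene, 932 several and 9160 were unnamed here. No build is named for the arrays. limma 3.58.1 in R 4.3.3 (lmFit and eBayes, two-sided) compared regions on log2(signal + 16), once over 45037 probe sets and once over 18193 genes, a gene being its probe set with the highest mean signal. Standard errors and intervals of genes come from the second fit, and those of single further probe sets from the first. Means of signal carry the SD over 3 arrays. No block was used in the main fit, because the series compares averages of each region. The 6 arrays stem from 3 mice, and the labels do not tie a letter to a mouse. As a check, the Pearson correlation of the deviations of 2 arrays with 1 letter over all genes came to 0.05, 0.04 and 0.01 for letters A to C. Over genes above the median level it was 0.26, 0.13 and 0.10, and the blocked values are printed beside the calls they change. The p-values set the difference between regions against the spread of these arrays within a region. The main fit treats the 6 arrays as independent. The procedure was run on simulated data with independent noise on every array, so that run cannot speak for arrays that share a mouse.

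The members and gene lists were chosen with earlier results of these data known. All member probe sets were described, together with called pathway genes and a fixed set of others. Of the 66 further pathway genes listed, 5 were not analysed here. The alternatives were the pseudocounts 1 and 64, quantile normalisation, median centring, scaling to the poly-A controls, only features above the median level, the block, an intensity trend, other choices of probe set, and leaving out each array.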

Additional observations from a re-analysis of the deposited data

How the results depend on the processing

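Calls of the Notch genes depend on the settings, and the cause was not tested, also where fewer arrays or features were used. Of the 19 probe sets, 3 were called higher and 2 lower. This became 1 and 1 with pseudocount 1 and with quantile normalisation, and 1 and 2 after median centring. It became 10 and 0 with the poly-A controls, 12 and 0 without Trp (chosen after seeing the data) and 0 and 0 with the replicate block. Leaving out 1 array gave 0 to 1 higher and 0 to 1 lower. Of the 10 genes, 3 higher and 1 lower became 6 and 0 with the poly-A controls, 7 and 0 without Trp, and 1 and 0 with the replicate block. Lower genes numbered 2 among features above the median level and 2 with an intensity trend. Leaving out 1 array gave 1 to 3 higher and 0 to 1 lower. Of the other pathway genes, 3 higher and 7 lower became 31 and 0 with the poly-A controls, 40 and 0 without Trp and 0 and 0 with the replicate block. Lower calls were 4 with pseudocount 1, 12 with pseudocount 64, 15 after median centring, 16 above the median level, 15 with an intensity trend and 2 with the mean of all probe sets. Leaving out 1 array gave 1 to 2 higher and 0 to 1 lower.

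Signs turned in Notch1 1418634_at and the gene Notch1 (0.06 without Trp), and in Notch2 1455556_at and the gene Notch2 (0.31 with the poly-A controls, 0.46 without Trp). They turned in Jag2 1426430_at and the gene Jag2 (0.04 without Trp), and in Jag1 1421106_at (0.03 and 0.11). They also turned in Jag1 1421105_at with quantile normalisation (-0.09) and Notch2 1451889_at with quantile normalisation (-0.14) and centring (-0.07), and from -0.05 to 0.47 without 1 array. Jag2 1426431_at went to 0.09 with pseudocount 64, 0.58 and 0.69 on the poly-A scales, and -0.73 to 0.62 without 1 array. Over genes, the call of Notch4 held in all 16 alternatives that measured it. With the letter as a random block, at a correlation of 0.10, the counts over the 10 genes did not change. Signals near background limit the size of the Notch4 change and the precision of Dll1, Dll4, Hey1, Jag2 and the dim probe sets of Jag1.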
